A study of Mus musculus with 16 samples.

Results

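The integrated stress response factors described here are 10 mouse genes, Atf4, Atf5, Ddit3, Cebpb, Trib3, Chac1, Asns, Sesn2, Nupr1 and Ppp1r15a, taken by symbol from the 39179 gene identifiers of the count files. Each symbol matched 1 identifier on GRCm38. 9 of the 10 were among the 13305 genes that passed the filter on low counts, and Chac1 did not. The data are RNA-seq read counts from bone marrow derived mast cells (BMMCs) of male C57BL/6 mice aged 8 to 10 weeks, grown for 4 weeks with stem cell factor and IL3. Cells were wild-type (PEP+/+) or lacked the PEST-domain-enriched tyrosine phosphatase (PEP-/-), which Ptpn22 encodes, and how that gene was deleted is not given in the sources used here. All groups were sensitized with IgE for 3 h, at a concentration for which the labels and the study's methods give different values. The IgE group received nothing else. The IgE DNP group was activated for 1 h with 200 ng/ml of the antigen dinitrophenol (DNP), the IgE DEX group was treated with the glucocorticoid dexamethasone (DEX, 100 nM) for 8 h, and the IgE DNP DEX group received both. Each of the 8 conditions had 2 libraries, 16 in all, 1 from a set whose titles carry numbers and 1 from a set whose titles carry letters. The sources used here do not say how many mice or cultures stand behind them, so p-values measure only the spread between these samples.

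The integrated stress response is a shared answer to amino acid shortage, misfolded protein in the endoplasmic reticulum, haem deficiency and double-stranded RNA. Kinases that sense these conditions phosphorylate the translation initiation factor eIF2, which lowers protein synthesis in general but favours translation of the Atf4 mRNA through upstream open reading frames. ATF4 protein then pairs with C/EBP family partners and binds C/EBP-ATF response elements in genes for amino acid synthesis and transport, aminoacyl-tRNA synthetases and regulators of cell death. Because ATF4 is controlled largely at translation, its mRNA and its protein are separate quantities, and only mRNA was measured here. In mast cells, antigen that crosslinks IgE on the high-affinity IgE receptor sets off degranulation and a wave of early transcription, and glucocorticoids dampen that activation.

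The C/EBP-ATF response element was searched as TGATGNAA on both strands of the window from 250 bases before to 50 bases after each RefSeq start site (GRCm38.p6). All 10 members had a window. The element was present for 4 of the 10 members, against 4.51% of the 27025 genes in the table. The 4 stretches that hold it are shown because they are the candidate ATF4 addresses among these genes. Each is written 5′ to 3′ on the strand of its gene, with the 8 matched bases in capitals.
Asns, chr6:7693210-7693262, minus strand: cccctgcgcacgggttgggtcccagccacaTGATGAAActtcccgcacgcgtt
Chac1, chr2:119351019-119351086, plus strand: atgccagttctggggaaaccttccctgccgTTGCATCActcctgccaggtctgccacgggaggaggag
Nupr1, chr7:126625543-126625610, minus strand: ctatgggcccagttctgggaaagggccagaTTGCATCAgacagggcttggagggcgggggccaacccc
Trib3, chr2:152344028-152344057, minus strand: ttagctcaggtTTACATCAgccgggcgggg

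The Asns match read in the direction of the gene and spanned bases -23 to -16 from the start. The matches of Chac1 (-193 to -186), Nupr1 (-110 to -103) and Trib3 (15 to 22, after the start) were on the opposite strand, so their letters appear as the reverse complement. These positions count from RefSeq starts, which can differ from the gene spans printed below. By those spans the Trib3 match lies before the gene, and the Asns and Nupr1 matches lie inside theirs. In the 7 other pathway lists the element was found for 5 of 8 tRNA synthetase genes with a window, 2 of 5 bZIP partners, 2 of 6 amino acid transporter genes, 2 of 10 other targets, 2 of 11 amino acid synthesis genes, 1 of 15 genes of the ATF6 and XBP1 arms, and 0 of 10 kinases, eIF2 components and regulators. An AP-1 site (TGANTCA) was found for Ddit3, at -242 to -236, and for no other member, against 8.97% of all genes. The ER stress element (CCAAT and CCACG with 9 bases between them) and the glucocorticoid response element (GNACA and TGTNC with 3 bases between them) were found for no member, against 0.137% and 0.537% of all genes. A match of letters is a description of the window and not a bound site, and the absence of one says nothing about the factor.

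The genes lie apart from each other. Atf4 (chr15:80255184-80257541, plus strand) encodes the central transcription factor of the response, and Atf5 (chr7:44812256-44816658, minus strand) a related factor that is also favoured when eIF2 is phosphorylated. Ddit3 (chr10:127290774-127296288, plus strand) encodes CHOP, and Cebpb (chr2:167688915-167690418, plus strand) a C/EBP partner of ATF4. Trib3 (chr2:152337422-152344032, minus strand) encodes a pseudokinase that restrains ATF4 and AKT. Chac1 (chr2:119351229-119354381, plus strand) encodes an enzyme that degrades glutathione, and Asns (chr6:7675169-7693254, minus strand) asparagine synthetase. Sesn2 (chr4:132492032-132510501, minus strand) encodes sestrin 2, a leucine sensor that restrains mTORC1. Nupr1 (chr7:126623249-126630861, minus strand) encodes a small stress-induced chromatin protein. Ppp1r15a (chr7:45522916-45526268, minus strand) encodes GADD34, which brings a phosphatase to eIF2 and so ends the response. Cebpb shares 312 exonic bases with Tmem189 on the other strand, Atf5 shares 82 with Nup62 and with Il4i1, Ddit3 shares 68 with Mars and 105 with another locus of the same symbol on its own strand, and Ppp1r15a shares 12 with Tulp2. The kit keeps strand, but the strand setting of the counting is not given in the sources used here.

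Libraries held 8612531 to 22143526 reads counted on genes, with a median of 12814043.5. The deleted gene matched the labels, with 130 to 2799 Ptpn22 reads in PEP+/+ libraries and 0 to 55 in PEP-/- libraries. All 7 mast cell markers were detected in every library, with a summed level of 61998 to 102517 CPM, read counts scaled to a common library size, in PEP+/+ and 67278 to 95303 CPM in PEP-/-. The summed levels of 5 macrophage markers were 5.80 to 13.0 CPM in PEP+/+ and 10.7 to 17.9 CPM in PEP-/-, and those of the basophil markers Mcpt8 and Prss34 reached 122 CPM in PEP+/+ and 54.9 CPM in PEP-/-. The 5 neutrophil markers summed to at most 2.35 CPM, and Cd3e was at 0 in every library. The library sets stood apart: 63.6% of the 13305 genes differed between them when set was fitted beside condition (edgeR quasi-likelihood test, adjusted p under 0.05). Among the members the lettered set was higher on the log2 scale by 1.26 for Cebpb, 0.83 for Trib3, 0.77 for Ddit3, 0.51 for Ppp1r15a, 0.41 for Atf5 and 0.25 for Atf4, all past that threshold. Same-set libraries deviated together in all 28 pairs of conditions, so values with the set as a block are printed where they change the call of a member, and counts with the block are given for the pathway lists.

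The members spanned a wide range of levels. By median level per length over the 16 libraries, in CPM per kilobase of exon (RPKM), Atf4 was highest at 110.4, followed by Ppp1r15a at 32.3 and Ddit3 at 26.6. Cebpb, Atf5 and Sesn2 followed at 6.79, 6.63 and 6.53 RPKM. Asns (1.74 RPKM), Trib3 (0.931 RPKM) and Nupr1 (0.364 RPKM) were lower. Atf4 alone stood clear of its neighbour in this order, with a lowest library at 61.4 RPKM against a highest Ppp1r15a library at 50.5 RPKM, and the ranges of all other neighbours overlapped. Chac1 had 0 to 5 reads in a library and was at 0 in all 4 IgE libraries. Nupr1 rested on 3 to 27 reads, Trib3 on 5 to 76 and Asns on 26 to 173, so their counting error is large.

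**Figure D1:**
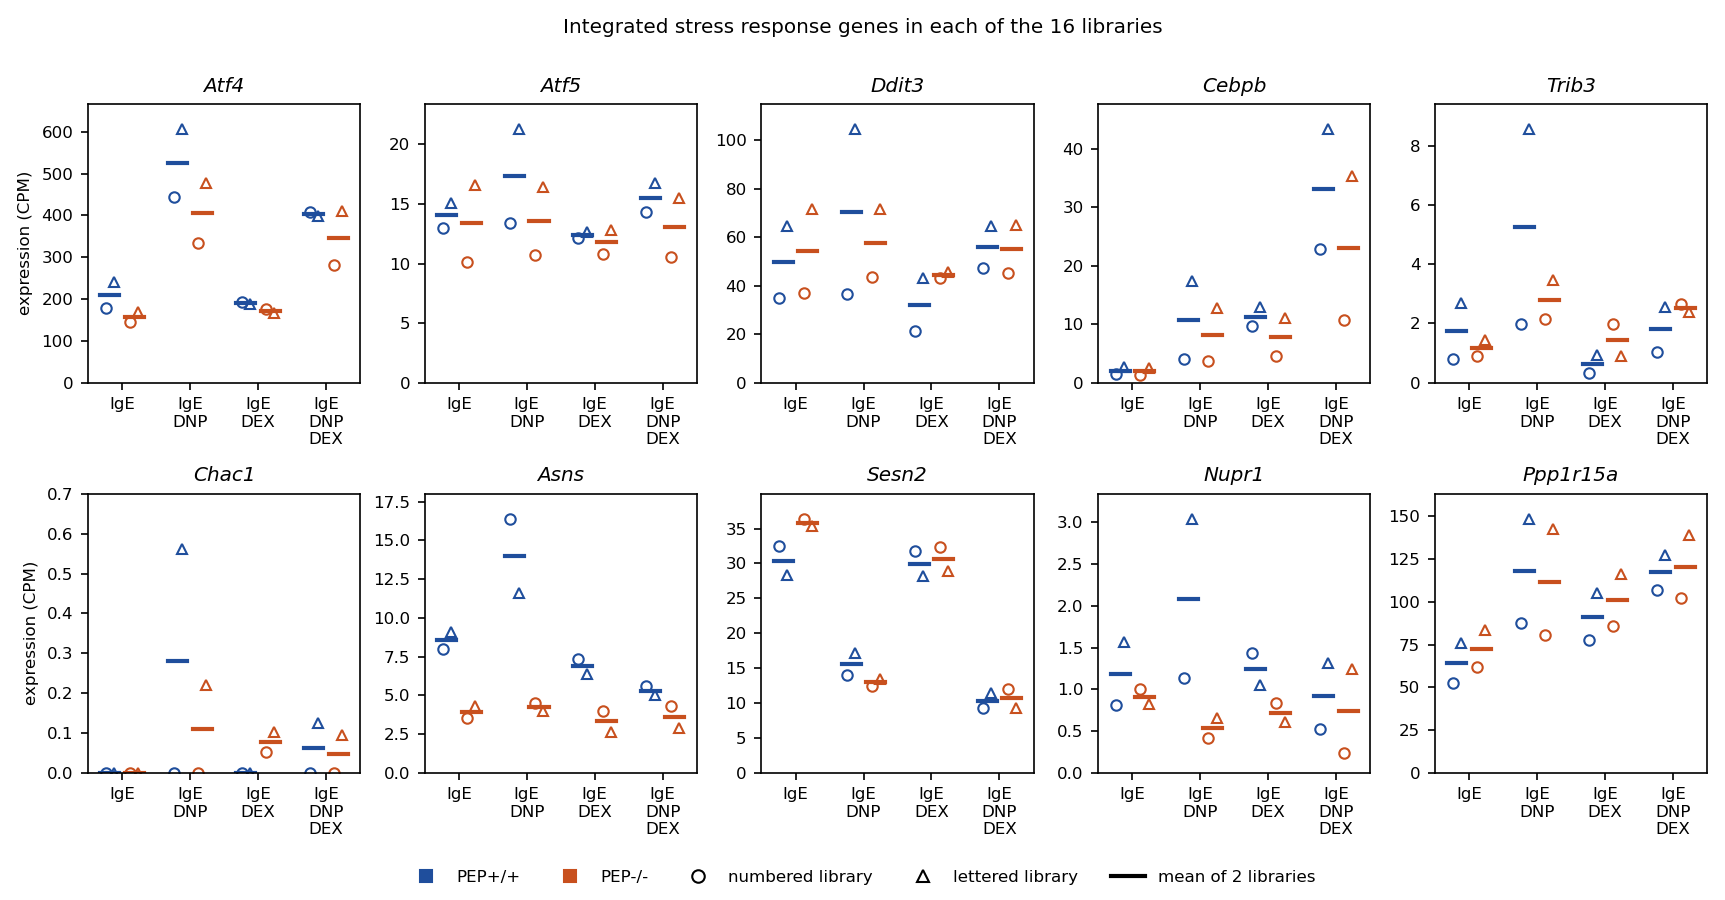
Expression of the 10 members in CPM (linear axes from 0, 1 panel per gene) in each of the 16 libraries by treatment. Blue is PEP+/+ and orange is PEP-/-, circles are numbered and triangles lettered libraries, and bars are the means of 2 libraries. The PEP-/- libraries lie below all PEP+/+ libraries for Asns, Atf4 is higher in every library that received DNP, Sesn2 is lower there, and Cebpb is lowest after IgE alone.

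The genotype comparison asked whether ATF4 and its targets differed between PEP-/- and PEP+/+ mast cells. Asns was lower in PEP-/- cells in every treatment. With the 4 treatments averaged, it was the only member called in the fit without the block. None of the other 8 tested members passed in that fit, and their differences had either sign. At an adjusted p under 0.05, that fit called 1 of the 9 members tested and 1.59% of the 13305 genes. Of all genes, 1.16% were called lower and 0.428% higher in PEP-/- cells. With the library set as a block, Atf4 was called lower as well (edgeR adjusted p = 0.0281). The fit with the block called 9.64% of all genes lower and 7.72% higher.

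In PEP+/+ cells Asns held 8.01 CPM in the numbered and 9.11 CPM in the lettered library after IgE, 16.4 and 11.6 CPM after IgE DNP, 7.36 and 6.39 CPM after IgE DEX, and 5.60 and 5.00 CPM when both DNP and DEX were given. In PEP-/- cells the corresponding values were 3.55 and 4.32 CPM, 4.51 and 3.96 CPM, 3.99 and 2.64 CPM, and 4.30 and 2.85 CPM. The lowest PEP+/+ library lay above the highest PEP-/- library, and the groups did not overlap. Over all genes tested, 0.323% had 8 PEP-/- libraries below all 8 PEP+/+ libraries. The average log2 difference, PEP-/- minus PEP+/+, was -1.11 (SE 0.15, 95% interval -1.44 to -0.77, edgeR quasi-likelihood test, adjusted p = 0.0102). Asns was lower in 8 of 8 same-set, same-treatment pairs, by -0.34 to -1.75 on the log2 scale. The pairs come from 2 library sets, and the number of cultures is not given, so pairs here and below may not be independent. In bulk cultures, fewer cells that express a gene and less of its RNA in each cell cannot be told apart. The call held without each of the 16 libraries in turn, with values of -1.19 to -1.04 and adjusted p of 0.0146 to 0.0417, and in each library set alone, at -1.11 in the numbered and -1.19 in the lettered set.

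Within a treatment there were 2 libraries against 2, and 0.00752% of genes, which is Ptpn22 alone, passed the edgeR test in each of the 4. No member was called there by edgeR, and at an unadjusted p under 0.05 the same tests gave 528, 605, 385 and 298 genes after IgE, IgE DNP, IgE DEX and IgE DNP DEX. Those counts are 2.24% to 4.55% of the genes tested, below the share of 0.05 expected when nothing differs. The missing calls therefore do not show equal levels. For Asns the log2 differences were -1.11 (SE 0.30) after IgE, -1.72 (SE 0.31) after IgE DNP, -1.03 (SE 0.31) after IgE DEX and -0.56 (SE 0.31) after IgE DNP DEX, with adjusted p of 0.761, 0.246, 1 and 1. With the library set as a block, Asns was called after IgE (adjusted p = 0.0367) and after IgE DNP (adjusted p = 0.00465). It was lower there in both, and those fits called 1.69% and 1.86% of all genes, 1.39% and 1.56% in that direction. DESeq2 called Asns after IgE DNP as well.

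Atf4 itself had a smaller genotype difference. After IgE its levels were 179 and 240 CPM in the numbered and lettered PEP+/+ libraries and 145 and 168 CPM in the PEP-/- libraries. After IgE DNP they were 443 and 606 CPM in PEP+/+ and 334 and 478 CPM in PEP-/-, after IgE DEX 193 and 188 CPM against 175 and 166 CPM, and after IgE DNP DEX 408 and 400 CPM against 280 and 411 CPM. PEP-/- libraries were the lower of the pair in 7 of 8 same-set pairs, the exception being the lettered IgE DNP DEX libraries, and the ranges of the genotypes overlapped. The average log2 difference was -0.29 (SE 0.13, 95% interval -0.57 to -0.02, edgeR adjusted p = 0.315). With the library set as a block the difference was -0.30 (SE 0.09) and passed the threshold (adjusted p = 0.0281), in a fit that called 17.4% of all genes, 9.64% lower and 7.72% higher.

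The other transcription factors did not pass the genotype test. Cebpb had an average log2 difference of -0.38 (95% interval -1.27 to 0.52, edgeR adjusted p = 0.79) and was the lower of the pair in PEP-/- cells in 8 of 8 same-set pairs, by -0.01 to -1.05. The difference was -0.030 without the lettered PEP+/+ IgE DNP library and -0.67 without the lettered PEP-/- IgE DNP library. With the block its difference was -0.45 (adjusted p = 0.0924). Atf5 had a difference of -0.19 (95% interval -0.54 to 0.17) and Ddit3 one of 0.07 (95% interval -0.51 to 0.65). Among the remaining members, Nupr1 had a difference of -0.86 (95% interval -1.69 to -0.03, adjusted p = 0.328) on few reads and was lower in 7 of 8 same-set pairs. Sesn2, at 0.01 (95% interval -0.21 to 0.23), had the narrowest interval of the 9. Ppp1r15a was at 0.07 (95% interval -0.31 to 0.45) and Trib3 at 0.05 (95% interval -0.80 to 0.89). Trib3 was lower in PEP-/- cells in 4 of 8 same-set pairs and higher in the other 4.

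**Figure D2:**
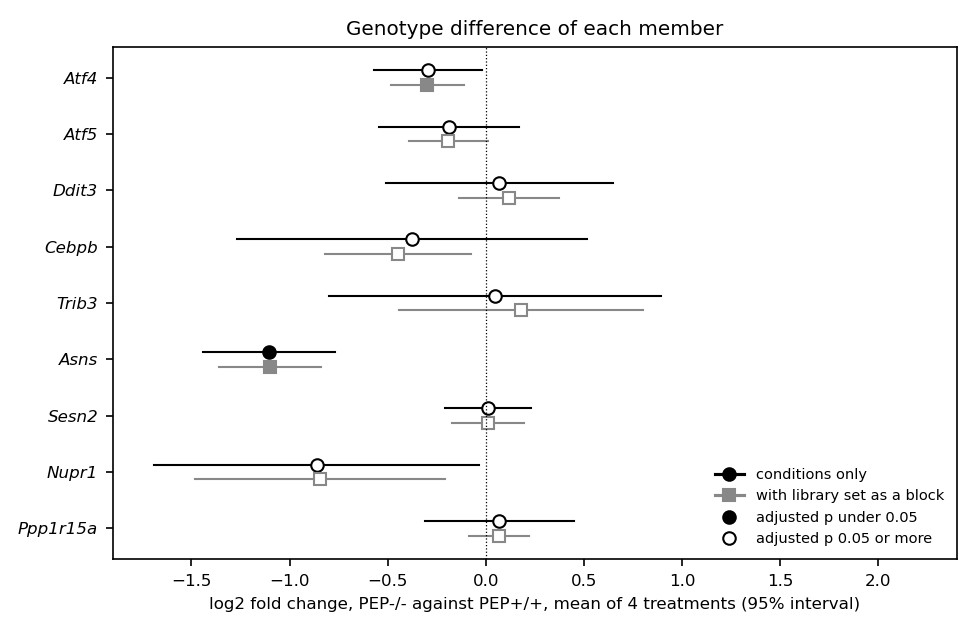
Log2 difference PEP-/- minus PEP+/+ of the 9 tested members, averaged over the 4 treatments, with 95% intervals. Black circles are from the fit of conditions and grey squares from the fit with the library set as a block, and filled symbols have an adjusted p under 0.05. Asns at -1.11 is filled in both, and Atf4 is filled with the block, at -0.30.

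Other genes of the pathway were taken from lists of known ATF4 targets and stress response components. These lists, like the members, were chosen with earlier results of these data known, so they are not independent of them. Of 11 tested enzymes of serine, one-carbon, transsulfuration, proline and transaminase metabolism, 5 were lower in PEP-/- cells and 6 were not called. The median log2 difference of this list was -0.44, all 11 values were negative, and the median over all genes tested was 0.02. Cth, which makes cysteine from cystathionine, was at -2.56 (SE 0.45, edgeR adjusted p = 0.0208), on 2 to 41 reads in PEP+/+ and 1 to 6 in PEP-/- libraries. Pycr1, of proline synthesis, was at -1.21 (adjusted p = 0.0324) and also rested on few reads, 4 to 26 in PEP+/+ and 5 to 16 in PEP-/-. Phgdh, the first enzyme of serine synthesis, was at -0.99 (SE 0.18, adjusted p = 0.0222), with 2.44 to 14.6 CPM in PEP+/+ and 1.63 to 6.73 CPM in PEP-/-. The one-carbon enzymes Mthfd2 (-0.89, adjusted p = 0.0438) and Shmt2 (-0.62, adjusted p = 0.0207) were the other called genes, and these are named after their values were seen.

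All 12 cytosolic tRNA synthetases had negative differences, with a median of -0.32, and 2 of them were called lower, Yars at -0.44 (adjusted p = 0.0308) and Mars at -0.43 (adjusted p = 0.0453). With the library set as a block, 11 of the 12 synthetases and 8 of the 11 enzymes were called lower, in the fit that called 9.64% of all genes lower. The 14 eIF2 kinases, eIF2 and eIF2B subunits and regulators had a median of -0.01, and the eIF2B subunit gene Eif2b3 was called lower (-0.68, adjusted p = 0.0182). The 18 genes of the ATF6 and XBP1 arms, the other branches of the unfolded protein response, had a median of -0.26, and Manf was called lower (-0.50, adjusted p = 0.0385). With the block 4 of these 14 and 9 of these 18 genes were called lower. Of the 8 amino acid transporters (median -0.22), 6 bZIP partners (median 0.04) and 13 other ATF4 or CHOP targets (median 0.14), none was called by edgeR without the block. With the block 2 transporters were called lower and 1 bZIP partner higher, and of the other targets 2 were higher and 2 lower. That fit called 9.64% of all genes lower and 7.72% higher. None of the 7 pathway genes given here by the rule for named genes kept its edgeR call without each library in turn: Eif2b3, Cth, Pycr1, Phgdh, Yars, Mars and Manf were called in 7, 5, 0, 8, 4, 0 and 3 of 16 such fits.

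**Figure D3:**
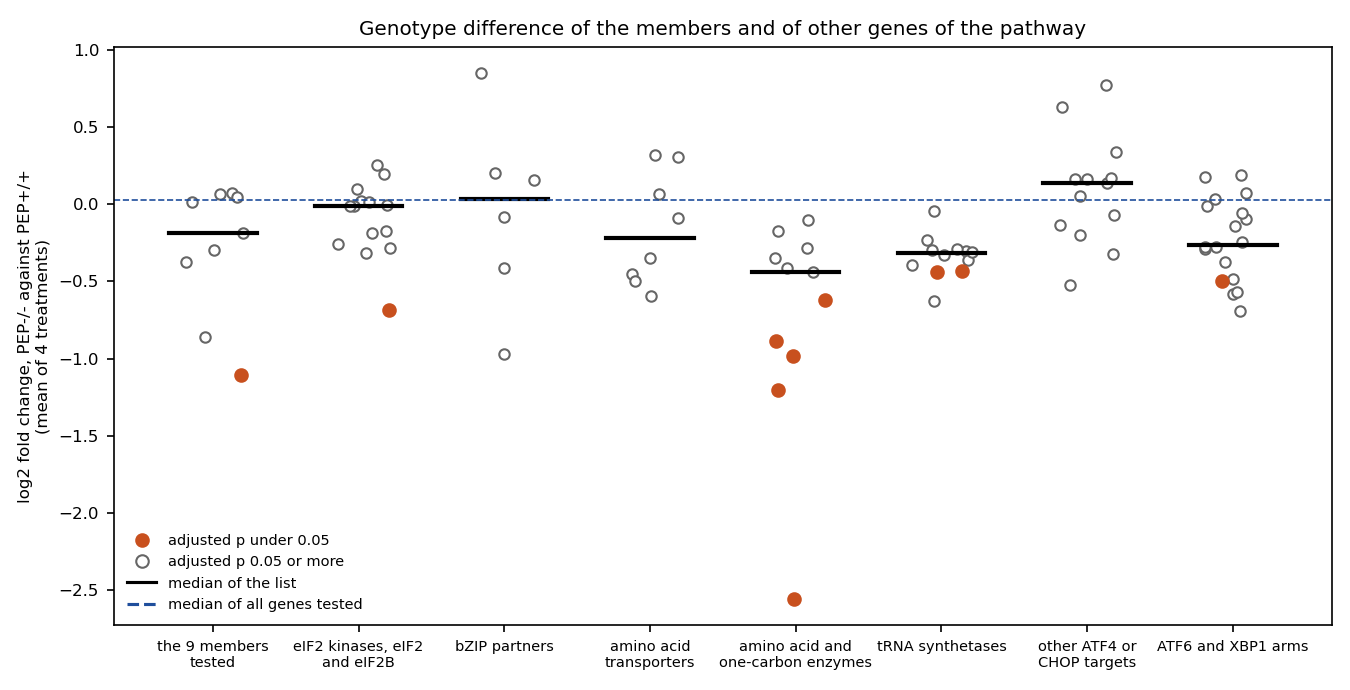
Log2 difference PEP-/- minus PEP+/+, mean of 4 treatments, for the 9 tested members and for 7 lists of other pathway genes. Each point is a gene, filled where the adjusted p is under 0.05, bars are list medians and the dashed line is the median of all genes tested at 0.02. All 11 enzymes and all 12 tRNA synthetases lie below the line, with medians of -0.44 and -0.32.

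DNP was compared with no DNP to see how antigen moved the response, averaged over genotypes and given for cells without and with DEX. In the fit without the block, Atf4 and Cebpb rose and Sesn2 fell without DEX, while 6 of the 9 members did not pass the test. With DEX, Atf4 rose and Sesn2 fell. Without DEX 16.7% of all genes were called (9.07% higher, 7.58% lower) and with DEX 12.6% (7.19% higher, 5.42% lower), beside 3 and 2 of the 9 members. With the library set as a block, 4 members rose and 1 fell in each comparison. Added were Trib3 and Ppp1r15a without DEX, and Cebpb, Ddit3 and Ppp1r15a with DEX, all higher. That fit called 18.6% of all genes higher and 19.3% lower without DEX, and 18.4% and 19.2% with DEX.

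Atf4 was 145 to 240 CPM in the 4 IgE libraries and 334 to 606 CPM in the 4 IgE DNP libraries, and 166 to 193 CPM in the IgE DEX against 280 to 411 CPM in the IgE DNP DEX libraries. The groups did not overlap in either comparison, and every library with DNP lay above every library without it. The log2 changes were 1.35 (SE 0.18, edgeR adjusted p = 0.000389) without DEX and 1.05 (SE 0.18, adjusted p = 0.00292) with DEX. Over all genes, 11.6% and 10.1% had such higher, non-overlapping groups.

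Sesn2 moved the other way. In PEP+/+ cells it held 32.5 and 28.4 CPM after IgE against 14.0 and 17.2 CPM after IgE DNP, and in PEP-/- cells 36.3 and 35.4 CPM against 12.5 and 13.5 CPM. With DEX it held 31.8 and 28.1 CPM without DNP against 9.24 and 11.4 CPM with DNP in PEP+/+ cells, and 32.4 and 28.9 CPM against 11.97 and 9.33 CPM in PEP-/- cells. All 8 DNP libraries lay below all 8 libraries without DNP. Lower, non-overlapping groups were found for 10.5% of all genes without DEX and 9.33% with DEX. The log2 changes of Sesn2 were -1.21 (SE 0.14, edgeR adjusted p = 0.000155) without DEX and -1.53 (SE 0.14, adjusted p = 6.41e-05) with DEX. Sesn2 thus fell in the same libraries in which Atf4 rose.

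Cebpb after IgE was at 1.54 and 2.60 CPM in PEP+/+ and 1.27 and 2.57 CPM in PEP-/- cells, and after IgE DNP at 4.07 and 17.3 CPM and at 3.69 and 12.8 CPM. The groups did not overlap, as for 11.6% of all genes in that direction. Within the IgE DNP group the lettered libraries were far above the numbered ones. The log2 change was 2.22 (SE 0.61, edgeR adjusted p = 0.0284). This call was lost without any of the 4 IgE libraries (values of 2.03 to 2.53), without the lettered PEP+/+ IgE DNP library (1.51, adjusted p = 0.143) and without the lettered PEP-/- IgE DNP library (1.63, adjusted p = 0.144). With the block the change was 2.13 (adjusted p = 2.27e-05), and it was called in each library set alone, at 1.51 in the numbered and 2.47 in the lettered set. In cells with DEX, Cebpb had a change of 1.56 (SE 0.56, adjusted p = 0.0982). With the block that change was 1.48 and passed (adjusted p = 9.81e-05).

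Ppp1r15a was higher with DNP in 4 of 4 same-set, same-genotype pairs without DEX, with levels of 52.5 to 83.3 CPM after IgE and 80.6 to 148 CPM after IgE DNP. Its log2 change of 0.75 (SE 0.25) missed the threshold (edgeR adjusted p = 0.0608) and passed it with the block (0.73, adjusted p = 5.01e-05), in a fit that called 37.9% of all genes. With DEX the change was 0.31 (adjusted p = 0.481; with the block, 0.0216). Trib3 had changes of 1.41 (adjusted p = 0.123) without DEX and 1.14 (adjusted p = 0.237) with DEX, and was called with the block in the first alone (adjusted p = 0.0109). Its highest level, 8.55 CPM, was in the lettered PEP+/+ IgE DNP library, and the other 3 IgE DNP libraries held 1.99 to 3.47 CPM. Without that library the Trib3 change was 0.70 (adjusted p = 0.512).

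Ddit3, the CHOP gene, had log2 changes of 0.29 (95% interval -0.53 to 1.11) without DEX and 0.56 (95% interval -0.26 to 1.38) with DEX, and the second was called with the block (adjusted p = 0.0187), where 37.6% of all genes were. Asns had changes of 0.40 (95% interval -0.06 to 0.87) and -0.14 (95% interval -0.62 to 0.34). Atf5 was at 0.16 and 0.24 and Nupr1 at 0.04 and -0.19, and Asns, Atf5 and Nupr1 passed in neither fit. The Chac1 counts were highest after IgE DNP, at 5 reads in the lettered PEP+/+ and 4 in the lettered PEP-/- library with 0 in both numbered libraries.

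Among the listed pathway genes, DNP without DEX raised 3 of 18 genes of the ATF6 and XBP1 arms, where 9.07% of all genes rose: Herpud1 (1.56 on the log2 scale), the chaperone Hspa5 (1.28) and Dnajb9 (1.08). It raised 3 of 8 amino acid transporters, Slc7a1 at 3.28, Slc7a5 at 1.31 and Slc3a2 at 0.42. The Slc3a2 rise was called in 4 of 6 alternative fits described with the processing, and those of Slc7a1 and Slc7a5 in 6 of 6. The Slc3a2 call was lost in most fits that left out 1 library, and that of Slc7a5 in some. Of 13 other targets 5 rose, with Sqstm1 (2.19), Ero1l (1.84) and Tnfrsf10b (1.36) the most changed. Another 3 fell, Ddit4 (-2.47), Gdf15 (-1.70) and Klhl24 (-1.26), where 7.58% of all genes fell. Of the 14 kinases and eIF2 components Eif2ak3, the PERK gene, fell (-0.95, edgeR adjusted p = 0.0422), and of the 6 bZIP partners Atf3 rose, from 0 to 0.154 CPM after IgE to 95.5 to 195 CPM after IgE DNP. None of the 11 enzymes of amino acid synthesis and none of the 12 tRNA synthetases was called by edgeR, with list medians of -0.01 and 0.22. With the block, which called 18.6% of all genes higher and 19.3% lower, 11 of the 18 genes of the ATF6 and XBP1 arms rose. In that fit 5 transporters rose and 1 fell, 7 of the other targets rose and 3 fell, 2 of the 14 kinases and eIF2 components rose and 3 fell, 4 bZIP partners rose, 4 tRNA synthetases rose, and 0 enzymes were called. With DEX, DNP raised 5 and lowered 2 of the 13 other targets, where 7.19% of all genes rose and 5.42% fell. Among those raised were Vldlr (1.87), Bbc3 (1.84) and Sqstm1 (1.60), and those lowered were Gdf15 (-2.35) and Ddit4 (-1.36). In the same comparison DNP raised 4 of 18 genes of the ATF6 and XBP1 arms, led by Atf6 (1.17), Herpud1 (1.07) and Hspa5 (1.01). Among 8 transporters it raised Slc7a1 (2.32) and lowered Slc38a2 (-0.64). Atf3 rose there as well, from 0.967 to 5.55 CPM to 14.1 to 26.3 CPM. With the block, 9 genes of the ATF6 and XBP1 arms rose and 1 fell, 7 other targets rose and 3 fell, 3 transporters rose and 2 fell, and 3 bZIP partners rose, beside 18.4% of all genes higher and 19.2% lower. In that fit 2 kinases and eIF2 components also rose and 3 fell, 1 tRNA synthetase rose and 1 enzyme fell. The comparisons without and with DEX use different libraries.

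DEX was compared with no DEX to see how the glucocorticoid moved the same genes, in sensitized cells (IgE DEX against IgE) and in activated cells (IgE DNP DEX against IgE DNP). In the fit without the block, Cebpb rose in sensitized cells and Asns fell in activated cells, and 8 of 9 members in each comparison were not called. 9.37% of all genes were called in sensitized cells (5.4% higher, 3.98% lower) and 10.7% in activated cells (5.67% higher, 4.99% lower). With the library set as a block, Ppp1r15a also rose in sensitized cells, where 26.7% of all genes were called. In activated cells Cebpb also rose and Sesn2 also fell with the block, beside 33.3% of all genes. These comparisons use the same libraries as those for DNP, grouped the other way, so they are not independent of them.

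Cebpb was at 9.64 and 13.0 CPM in PEP+/+ and at 4.56 and 11.1 CPM in PEP-/- cells after IgE DEX. All 4 values lay above the IgE libraries, which reached 2.60 CPM. Higher, non-overlapping groups were found for 8.51% of all genes. The log2 change of Cebpb was 2.21 (SE 0.61, edgeR adjusted p = 0.0424). The call was lost without any of the 4 IgE libraries (2.02 to 2.52), without either PEP+/+ IgE DEX library (2.31 and 2.10), without the lettered PEP-/- IgE DEX library (1.83) and without either PEP+/+ IgE DNP DEX library (2.20 in both). With the block it was 2.27 (adjusted p = 1.5e-05), and each library set alone gave a call, at 2.30 in the numbered and 2.16 in the lettered set. In activated cells Cebpb went from 3.69 to 17.3 CPM after IgE DNP to 22.9 and 43.4 CPM (PEP+/+) and 10.8 and 35.3 CPM (PEP-/-) after IgE DNP DEX, a change of 1.56 (SE 0.57, adjusted p = 0.112) that was called with the block (1.63, adjusted p = 5.42e-05). Within each genotype and library set, Cebpb was lowest after IgE and highest after IgE DNP DEX.

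Asns in activated cells had a log2 change with DEX of -0.82 (SE 0.22, edgeR adjusted p = 0.0332) and was the lower of the pair in 4 of 4 same-set, same-genotype pairs. The PEP+/+ pairs differed by -1.47 and -1.14, and the PEP-/- pairs by -0.06 and -0.41. The call was lost in 10 of 16 fits that left out 1 library, with values of -0.67 to -0.85 and adjusted p of 0.0501 to 0.138. Those libraries were the 4 numbered PEP+/+, the numbered PEP-/- IgE and IgE DNP, the lettered PEP+/+ IgE DEX and IgE DNP DEX, and the lettered PEP-/- IgE DNP and IgE DNP DEX libraries. With the library set as a block the change in activated cells was -0.82 (edgeR adjusted p = 0.00248), in a fit that called 17.4% of all genes lower. In sensitized cells the Asns change was -0.28 (95% interval -0.75 to 0.19).

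Sesn2 was lower with DEX in activated cells in 4 of 4 pairs, at 9.24 to 11.97 CPM against 12.5 to 17.2 CPM, and the groups did not overlap, as for 7.84% of all genes. Its change of -0.44 (SE 0.14) missed the threshold (edgeR adjusted p = 0.079) and passed it with the block (-0.43, adjusted p = 0.0188), in a fit that called 33.3% of all genes. In sensitized cells the change was -0.12 (95% interval -0.43 to 0.18). Ppp1r15a was higher with DEX in sensitized cells in 4 of 4 pairs, by 0.49 (SE 0.25, adjusted p = 0.317; with the block, 0.00175, where 26.7% of all genes were called), and in activated cells its change was 0.05 (95% interval -0.49 to 0.59). Atf4 had a change of -0.01 (95% interval -0.40 to 0.38) in sensitized cells and -0.30 (95% interval -0.69 to 0.08) in activated cells, where it was the lower of the pair in 4 of 4. Ddit3 was at -0.46 and -0.20, Trib3 at -0.55 and -0.83, Atf5 at -0.18 and -0.11 and Nupr1 at -0.12 and -0.35, and none of these passed in either fit.

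**Figure D4:**
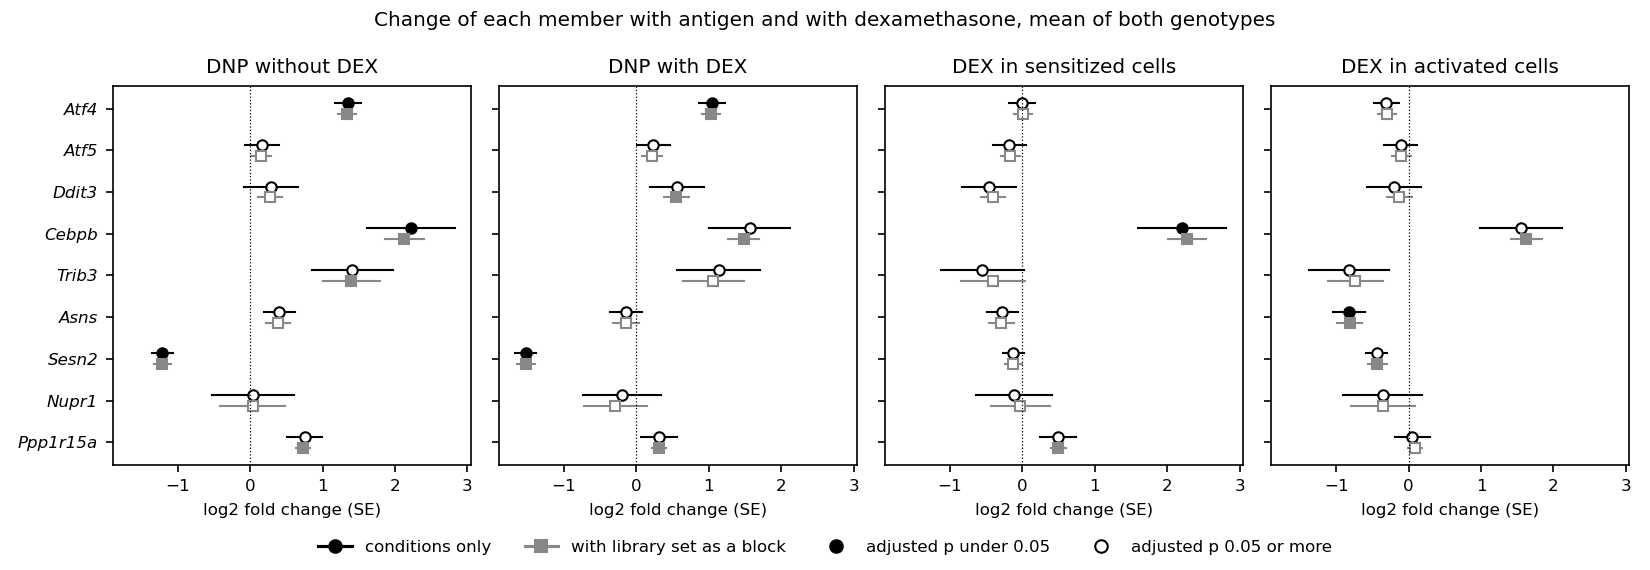
Log2 fold change of the 9 tested members with DNP (without and with DEX) and with DEX (in sensitized and in activated cells), mean of both genotypes, with standard errors. Black circles are from the fit of conditions, grey squares from the fit with the library set as a block, and filled symbols have an adjusted p under 0.05. Atf4 lies at 1.35 and 1.05 and Sesn2 at -1.21 and -1.53 with DNP, and Cebpb lies between 1.56 and 2.22 in all 4 panels in the fit of conditions.

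Among the listed pathway genes, Ddit4, which restrains mTORC1 as Sesn2 does, rose with DEX by 2.03 in sensitized and 3.15 in activated cells, opposite to its direction with DNP. Slc3a2 rose by 1.44 and 1.25 and the bZIP partner gene Jdp2 by 1.45 and 1.31. Slc7a11, the cystine transporter gene, rose by 1.46 and Gdf15 by 1.28 in sensitized cells, and Klhl24 rose by 1.51 in activated cells. Stc2 was at 0 or 1 read in every library without DEX and at 4 to 80 reads in those with it. Of the 11 enzymes of amino acid synthesis, 3 fell in sensitized cells (Gpt2 -1.59, Phgdh -1.45, Aldh18a1 -0.74), where 3.98% of all genes were called lower, and 8 were not called. In activated cells 4 fell, led by Phgdh (-1.89), Mthfd2 (-1.23) and Mthfd1l (-0.93), beside 4.99% of all genes, and 7 were not called. The list medians were -0.50 and -0.69, and with the block 8 and 5 of the 11 were called lower, beside 13.8% and 17.4% of all genes. In activated cells Slc7a5 (-1.25), Wars (-0.47) and Hsp90b1 (-0.46) fell, and in sensitized cells Creld2 (-0.70) and Hsp90b1 (-0.48) did. Of the 6 alternative fits described with the processing, 5 called this fall of Slc7a5, and 4 called each of the others. For Gpt2 in sensitized cells, 2 of 5 did. Each of these calls was lost in some fits that left out 1 library. Those of Slc7a5, Creld2 and Gpt2 were lost in most of these fits, and that of Wars in all. Atf3 was at 0.967 to 5.55 CPM after IgE DEX against 0 to 0.154 CPM after IgE, and fell in activated cells (-2.74). With the block, in sensitized cells (12.9% of all genes higher), 6 of the other targets rose and 2 fell, 3 genes of the ATF6 and XBP1 arms rose and 4 fell, 3 transporters rose and 2 fell, and 3 bZIP partners rose and 1 fell. With the block, in activated cells (15.9% of all genes higher), 7 of the other targets rose and 2 fell, 1 gene of those arms rose and 6 fell, 3 transporters rose and 3 fell, 2 bZIP partners rose and 3 fell, and 4 tRNA synthetases fell. Of the 14 kinases and eIF2 components, 1 rose and 1 fell in sensitized and 4 rose and 1 fell in activated cells with the block, and none was called without it. Of the 56 list results that the rule for named genes gave over the 5 comparisons, 31 kept their edgeR call without each library in turn and 56 kept it with the block.

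Whether genotype altered the answer to DNP in cells without DEX, or to DEX, was tested with interaction terms. No member and no gene was called by edgeR for DNP without DEX, for DEX in sensitized cells or for DEX in activated cells, and at an unadjusted p under 0.05 these terms gave 30, 40 and 95 genes. Those are 0.225%, 0.301% and 0.714% of the 13305 genes, below the share of 0.05 expected when nothing differs. The tests were thus conservative, and the missing calls do not show that genotype left these answers unchanged. DESeq2 also called 0 genes in each. The largest term relative to its error among the members was that of Asns with DEX in activated cells, at 1.17 (SE 0.43, 95% interval 0.22 to 2.12, unadjusted p = 0.0206, adjusted p = 1). For Atf4 the terms were 0.05 (95% interval -0.72 to 0.83) for DNP without DEX, 0.26 (95% interval -0.52 to 1.04) for DEX in sensitized cells and 0.14 (95% interval -0.63 to 0.92) for DEX in activated cells. The same-set changes of Atf4 with DNP were 1.30 and 1.33 in PEP+/+ and 1.203 and 1.502 in PEP-/- cells. No member had a called DNP by DEX interaction, where 0.331% of all genes were called, 0.0601% with a positive and 0.271% with a negative term. The Ppp1r15a term was -0.44 (95% interval -1.199 to 0.32), and that of Asns -0.54 (95% interval -1.21 to 0.12).

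The genes whose pattern was most like that of Atf4 were found by Pearson correlation of log2 CPM over the 16 libraries after the mean of each library set was removed, among 13304 other genes. They were Eif4a1 (0.982), Dhps (0.979), Tuba1c (0.979), Nfkbib (0.975) and Hspa5 (0.974). The libraries share treatments, so these values describe how closely the log2 levels moved together and carry no test. Among the members Ppp1r15a (0.73), Trib3 (0.70) and Atf5 (0.67) were nearest to Atf4, followed by Ddit3 (0.58), Cebpb (0.58), Asns (0.36) and Nupr1 (0.14). Sesn2 had a correlation of -0.86 with Atf4 and stood at rank 12646 of 13304.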

How the data were processed

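RNA from 16 BMMC samples was sequenced with a stranded mRNA kit. The authors aligned reads with TopHat2 to GRCm38 and counted them on genes with HTSeq, and deposited raw read counts per gene for each sample. The strand setting is not given in the sources used here, and reads aligned to several places (21.5% to 37.8% of all reads) and reads outside genes (4.69% to 11.0%) stayed out of library sizes and tests. Symbols came from GENCODE M21, in which 37607 of 39179 identifiers were found.

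Counts were scaled by TMM and tested in R 4.3.3 with the quasi-likelihood test of edgeR 4.0.16 (16 samples, 8 condition means, residual degrees of freedom 8) for genes kept by filterByExpr (minimum count 10). p-values were adjusted over 13305 genes (Benjamini-Hochberg, threshold 0.05). Standard errors and 95% intervals came from the test statistic. CPM use the TMM-scaled library size, and RPKM divide them by the exonic length, all exons of a gene in GENCODE M21 merged. The exons on which the authors counted may differ from these. Per-pair log2 differences used a pseudocount of 0.5 CPM, and correlations a prior count of 2.

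Numbered libraries were taken as replicate 1 and lettered ones as replicate 2. Deviations from condition means correlated over genes in all 28 pairs of conditions (lowest r 0.453, median 0.718), so the set was fitted as a block as well, with 7 residual degrees of freedom; the common biological coefficient of variation fell from 0.312 to 0.133. What the sets stand for is not given in the labels.

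The members and lists were chosen with earlier results of these data known. Named are all members, up to 3 called genes per direction with the largest change from each other list in the genotype average and the 4 treatment comparisons, Ptpn22, and the 5 genes most correlated with Atf4. Alternatives were DESeq2 1.42.0, its size factors in edgeR, no filter, a stricter filter (10 counts or more in all samples), fits of the compared conditions alone, the block, each library left out, and, chosen after seeing the data, each library set alone in an additive model. Scripts were tested on simulated data.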

Additional observations from a re-analysis of the deposited data

Results flagged for a closer look

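The Asns change with DNP under DEX had opposite signs in the genotypes. In PEP+/+ cells the numbered and lettered IgE DNP DEX libraries were below their IgE DEX counterparts by -0.37 and -0.33 on the log2 scale, and in PEP-/- cells they were above them by 0.10 and 0.09. The mean difference, PEP-/- minus PEP+/+, was 0.44. This difference was not tested, and it rests on 26 to 152 Asns reads per library. The PEP-/- libraries held 26 to 77 of these reads, so their small changes carry a large counting error. Asns was flagged by a rule that searched the tested members for opposite signs in the genotypes.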

How the results depend on the processing

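The count of members called in the genotype average was 1 by edgeR and with DESeq2, its size factors and both other filters, 2 with the library set as a replicate block and in the numbered set alone, and 1 to 1 without each library. Within treatments the count by edgeR was 0, with 1 after IgE with the block, and 1 after IgE DNP with DESeq2 and with the block. For DNP without DEX it was 3, against 5 with no filter, with the block and in the lettered set, and 2 to 4 without each library. For DNP with DEX it was 2, against 5 with the block and in the lettered set, and 2 to 2 without each library. For DEX in sensitized cells it was 1, against 0 with at least 10 counts in every sample, 2 with the block and in the numbered set, 4 in the lettered set and 0 to 1 without each library. For DEX in activated cells it was 1, against 3 with DESeq2 and with the block, 0 with only the conditions compared, 5 in the lettered set and 0 to 1 without each library. The cause of these moves was not tested. Beyond the calls given in the report, the block changed no other call of a member.

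Signs turned, in no case for a called value, as follows. In the lettered set alone the genotype average was -0.069 for Ddit3, -0.73 for Trib3 and -0.025 for Sesn2, Nupr1 with DNP under DEX was 0.64 and Ppp1r15a with DEX in activated cells was -0.11. In the numbered set alone Nupr1 with DNP was -0.25, DEX in sensitized cells gave 0.20 for Atf4, 0.33 for Trib3, 0.011 for Asns and 0.32 for Nupr1, and DEX in activated cells gave 0.032 for Atf5 and 0.22 for Ddit3. Atf4 with DEX in sensitized cells was 0.018 with only the conditions compared and 0.0096 with the block. Without each library in turn the genotype average ranged from -0.077 to 0.30 for Ddit3, -0.13 to 0.39 for Trib3, -0.038 to 0.051 for Sesn2 and -0.048 to 0.17 for Ppp1r15a. DNP without DEX ranged from -0.032 to 0.36 for Atf5, -0.19 to 0.57 for Ddit3 and -0.40 to 0.31 for Nupr1, and DNP with DEX from -0.28 to 0.031 for Asns and -0.96 to 0.22 for Nupr1. DEX in sensitized cells ranged from -0.10 to 0.11 for Atf4, -0.33 to 0.021 for Atf5 and -0.32 to 0.15 for Nupr1. DEX in activated cells ranged from -0.24 to 0.094 for Atf5, -0.46 to 0.30 for Ddit3, -1.13 to 0.10 for Nupr1 and -0.10 to 0.30 for Ppp1r15a. The Asns interaction of genotype and DEX in sensitized cells ranged from -0.26 to 0.33.

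Over all genes, the genotype average gave 212 calls, against 697 with DESeq2, 472 with no filter, 2310 with the block, 888 in the numbered and 1440 in the lettered set. After IgE, IgE DNP, IgE DEX and IgE DNP DEX edgeR gave 1 call each, DESeq2 30, 44, 17 and 2, no filter 21, 39, 40 and 22, and the block 225, 248, 75 and 3. DNP without DEX gave 2216, against 5042 with the block and 4861 in the lettered set, and DNP with DEX 1678, against 5007, 4484 and, with only the conditions compared, 953. DEX in sensitized cells gave 1247, against 3548 with the block and 3080 in the lettered set, and DEX in activated cells 1418, against 4429 with the block, 2552 and 3215 in the numbered and lettered sets, and 805 with only the conditions compared. The genotype interactions gave 0 by edgeR and 0 with DESeq2 (30, 40 and 95 at an unadjusted p under 0.05 by edgeR), against 3, 2 and 24 with no filter, and the DNP by DEX interaction 44, against 101 with DESeq2, 107 with no filter and 209 with the block. Among the 10 members, those with the fewest reads were Chac1, Nupr1 and Trib3.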
